A study of Mus musculus with 23 samples.

Results

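The genes described here are 10 mouse counterparts of genes near human Alzheimer disease risk variants: Cd2ap, Bin1, Picalm, Sorl1, Clu, Abca7, Fermt2, Cass4, Ptk2b and Mef2c. They were listed together as non-microglial, a grouping that was not tested here. They were taken by gene symbol from the 37173 genes of a hippocampal count table, and each symbol matched 1 row. Poly-A RNA was sequenced from both hippocampi of 23 mice aged about 5 months, each mouse giving 1 library. Mice were of 4 genotypes: WT (n = 6), homozygous loss of p16 (p16KO, n = 6), a homozygous App knock-in (AppNLGF, n = 5) and both changes together (AppNLGF_p16KO, n = 6). The p16 protein, a product of Cdkn2a, inhibits the kinases that release E2F transcription factors and is a marker of cell senescence. The AppNLGF allele carries human amyloid-beta sequence with familial mutations in the mouse gene itself, so amyloid forms without App being driven from a transgene promoter. The labels do not describe which part of Cdkn2a was removed, give no batch, and number the mice by genotype, so handling order and genotype cannot be told apart.

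These 10 genes fall into a few cell biological systems. Cd2ap, Bin1 and Picalm act at endocytic membranes, where clathrin coats form and membranes bend. Sorl1 is a sorting receptor that returns App to the Golgi with the retromer complex, Clu is a secreted chaperone and apolipoprotein made largely by astrocytes, and Abca7 is a lipid transporter. Fermt2 (kindlin-2), Cass4 and the kinase Ptk2b (Pyk2) work at integrin adhesions, and Mef2c is a transcription factor of neurons that responds to calcium.

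Each library held 40693561 to 61178839 assigned reads (median 55138908). Reads on Cdkn2a itself were few: the WT libraries had 17 in all (0 to 6 each), the p16KO libraries 4 (0 to 2), the AppNLGF libraries 25 (2 to 9) and the AppNLGF_p16KO libraries 24 (0 to 8). Libraries labelled as lacking p16 in the knock-in background thus held Cdkn2a reads, and directions below refer to the libraries as labelled. Cdkn2a was too low to be tested. App, whose mouse and humanised reads are counted together, did not pass the test in any comparison (AppNLGF minus WT log2 -0.10, adjusted p = 0.572). By the read level of Xist, 11 mice were female and 12 male, and each genotype held both. All 12 neuron markers and all 8 CA field markers were detected in every library. Values are CPM, reads scaled to library depth with TMM factors, and "called" means an adjusted p below 0.05 in edgeR's quasi-likelihood test over 19423 genes, fitted on all 4 genotypes together. All 10 genes passed the filter on low counts. RNA came from whole tissue, so fewer cells of a type and less RNA per cell cannot be told apart.

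Promoters were set side by side because Cd2ap and Sorl1 were called lower without p16, averaged over App genotypes, and Picalm was not. Sorl1 was not called within either App background (edgeR adjusted p = 0.216 and 0.112). With each library's trends in transcript length and GC content removed, its averaged call was lost (adjusted p = 0.572). Picalm, an endocytic partner, was then called higher (adjusted p = 0.0393). The sequences are from RefSeq (GRCm38.p6), the 250 bases upstream of RefSeq's transcription start, 5′ to 3′ on the gene's strand, with GC boxes (GGGCGG) and E-boxes (CACGTG) of either strand in capitals. The windows are chr17:42876425-42876674 (minus strand) for Cd2ap, chr9:42124298-42124547 (minus strand) for Sorl1 and chr7:90129963-90130212 (plus strand) for Picalm.
Cd2ap: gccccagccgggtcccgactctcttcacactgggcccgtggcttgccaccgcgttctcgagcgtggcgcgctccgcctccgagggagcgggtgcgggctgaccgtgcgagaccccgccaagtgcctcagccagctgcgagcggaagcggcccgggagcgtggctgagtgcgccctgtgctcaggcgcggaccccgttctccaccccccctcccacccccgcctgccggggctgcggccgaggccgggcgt
Sorl1: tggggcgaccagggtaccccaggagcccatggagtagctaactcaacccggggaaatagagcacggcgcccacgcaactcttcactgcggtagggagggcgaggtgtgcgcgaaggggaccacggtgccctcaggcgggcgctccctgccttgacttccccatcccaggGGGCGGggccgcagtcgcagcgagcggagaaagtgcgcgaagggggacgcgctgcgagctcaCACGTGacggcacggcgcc
Picalm: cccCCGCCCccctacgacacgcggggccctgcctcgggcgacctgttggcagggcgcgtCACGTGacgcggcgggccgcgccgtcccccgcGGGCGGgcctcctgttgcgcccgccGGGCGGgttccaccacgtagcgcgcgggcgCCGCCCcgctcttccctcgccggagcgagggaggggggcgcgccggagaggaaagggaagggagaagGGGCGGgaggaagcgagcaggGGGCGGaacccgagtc
In the Cd2ap window no capitals occur, although 76.4% of its bases are G or C and it holds 31 CpG pairs. Of these bases, 241 also lie in an exon of a retained-intron transcript, Cd2ap-203 (GENCODE M21). The Sorl1 window printed, the one of 2 that is richer in G and C, has 1 GC box and 1 E-box, 69.6% G or C and 26 CpG pairs. The other Sorl1 window has 0 GC boxes and 0 E-boxes, 47.2% G or C and 9 CpG pairs. The Picalm window has 6 GC boxes and 1 E-box, 79.2% G or C and 39 CpG pairs, and 22 of its bases lie in an exon of an antisense transcript. Over all 32851 windows of this length the median was 52.4% G or C and 6 CpG pairs, 32.74% held a GC box and 6.02% an E-box. An E2F site (TTTCCCGC, TTTCGCGC, TTTGCCGC or TTTGGCGC on either strand) stood in 1.86% of all windows and in 0 of the 10 windows of these genes. A MEF2 site stood in 2.92% of all windows and in 0 of the 10. A match or its lack describes letters in this window and nothing further. Windows existed for 7 of the 10 genes, with 3 for Mef2c and 2 for Sorl1. Clu, Bin1 and Ptk2b have no entry in that table.

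The level of each gene per kilobase of its longest transcript spanned a wide range. The median over 23 libraries was 546 CPM per kb for Clu, 224 for Ptk2b and 97.7 for Bin1. Sorl1 followed at 39.5, Mef2c at 30.1, Fermt2 at 28.5 and Picalm at 25.3 CPM per kb. Mef2c, Fermt2 and Picalm, neighbours in this order, were apart by no more than the spread of Mef2c, whose WT libraries had a coefficient of variation of 19.3%. Cd2ap had 4.65, Abca7 3.1 and Cass4 0.132 CPM per kb, and the ranges of Cd2ap and Abca7 overlapped. Cass4 was represented by 15 to 35 reads per library and is the member measured with least precision. On the CPM scale, the ratio of the highest to the lowest library was smallest for Bin1 (1.26-fold) and Picalm (1.28-fold). It was largest for Cass4 (2.87-fold) and Cd2ap (1.92-fold).

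Cd2ap was the member with the smallest p for p16. Cd2ap (ENSMUSG00000061665, chromosome 17, 42792951 to 42876665, minus strand) encodes an adaptor that links membrane receptors to actin and to endocytic sorting. WT libraries ran from 25.8 to 33.6 CPM (median 31.0) and p16KO libraries from 24.2 to 26.8 CPM (median 24.8). The 5 AppNLGF libraries read 31.8, 29.6, 30.7, 31.4 and 33.7 CPM, and the AppNLGF_p16KO libraries ran from 17.5 to 26.1 CPM (median 24.6). All 6 p16KO mice lay under the WT mean, and every AppNLGF_p16KO mouse lay below every AppNLGF mouse. The 2 genotypes with p16 present had similar means, 30.3 ± 2.66 CPM (SD, n = 6) in WT and 31.4 ± 1.5 (SD, n = 5) in AppNLGF. Without p16 the means were 25.1 ± 0.907 (SD, n = 6) and 23.4 ± 3.28 CPM (SD, n = 6).

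Averaged over both App genotypes, Cd2ap fell by 21.5% without p16 (log2 -0.35, SE 0.055, 95% interval -0.46 to -0.24, edgeR adjusted p = 0.00224). That placed Cd2ap 10th by p among 19423 genes. In this comparison 2 of the 10 genes were called, both lower (Cd2ap and Sorl1), against 13.0% of all genes tested (7.66% higher and 5.32% lower). DESeq2 also called 2. An unadjusted p under 0.05 in edgeR was held by 4 of the 10 genes and by 6025 of all 19423 genes tested. In the AppNLGF background alone Cd2ap was the single member called (log2 -0.43, SE 0.079, edgeR adjusted p = 0.0473), where 0.0309% of all genes passed and 0.00515% were lower. That is 6 genes, of which Cd2ap was the 1 that was lower, but 4156 genes were called when AppNLGF_p16KO 23 was left out. Non-overlap of AppNLGF_p16KO and AppNLGF was seen for 1 of the 10 genes and 1.13% of all genes. This second call was fragile: it was lost in 17 of 23 fits that left out 1 library (edgeR adjusted p 0.0601 to 0.185). It was kept only without WT 1, WT 5 or AppNLGF_p16KO 19, 21, 22 or 23 (0.00493 to 0.0432).

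In the wild-type App background the log2 change was -0.27 (SE 0.076, edgeR adjusted p = 0.0932), which did not pass. No member was called there in edgeR, 5 of 10 had an unadjusted p under 0.05, DESeq2 called 1 (Cd2ap, adjusted p = 0.0362), and 0.309% of all genes were called in edgeR. WT and p16KO ranges overlapped for all 10 genes, against 1.81% of all genes without overlap. Without WT 1 the adjusted p for Cd2ap was 0.0476, and without AppNLGF_p16KO 21 it was 0.0264. The interaction term for Cd2ap was -0.15 (95% interval -0.38 to 0.07, edgeR adjusted p = 0.897), so the p16 effects in the 2 App backgrounds were not shown to differ.

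Cd2ap was also lower in AppNLGF_p16KO than in WT (log2 -0.37, SE 0.076, edgeR adjusted p = 0.00612), a call kept in all 23 fits that left out 1 library. For the knock-in alone, AppNLGF minus WT was 0.05 (95% interval -0.11 to 0.21). Between AppNLGF and p16KO the ranges did not overlap, with every AppNLGF library higher, and the log2 difference of 0.32 had an edgeR adjusted p of 0.0556. It passed with length and GC trends removed (0.28, adjusted p = 0.0341) and without WT 1 (0.0379), AppNLGF_p16KO 21 (0.00891) or AppNLGF_p16KO 23 (0.0372). These comparisons share libraries and are not independent of each other.

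Mean Cd2ap was lower without p16 in females and in males, a difference not tested within sex. Female means were 30.5 CPM in WT (n = 3), 25.5 in p16KO (n = 3), 31.0 in AppNLGF (n = 2) and 25.4 in AppNLGF_p16KO (n = 3). Male means were 30.2, 24.7, 31.7 and 21.4 CPM (n = 3 in each genotype). The male AppNLGF_p16KO mean included library 21, the lowest of all at 17.5 CPM. With libraries 21 and 22 left out, which an earlier analysis of these counts had set apart, the averaged log2 change was -0.31 (edgeR adjusted p = 0.00087). Among cell type markers in the same comparison, 3 of 12 neuron genes were called higher and 1 lower (Map2, log2 -0.43, edgeR adjusted p = 0.0246), 2 of 10 astrocyte genes higher and 1 lower, and 3 of 12 microglia genes higher. Of 6 oligodendrocyte precursor genes 1 was higher, and in 7 other lists edgeR called none, with 0 to 4 genes of each at an unadjusted p under 0.05 and 1 gene called by DESeq2 in 2 of the lists. Of 10 endothelial genes, the receptors Flt1 (-0.27, adjusted p = 0.0157) and Kdr (-0.29, adjusted p = 0.0346) were lower, 5 had a positive value, Cldn5 among them (0.26, adjusted p = 0.19), and the list median was 0.00. The summed endothelial level was 294 to 324 CPM in WT and 299 to 402 CPM in p16KO. It was 297 to 346 CPM in AppNLGF and 286 to 348 CPM in AppNLGF_p16KO, and the part of these markers in the Cd2ap value was not tested.

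**Figure D1:**
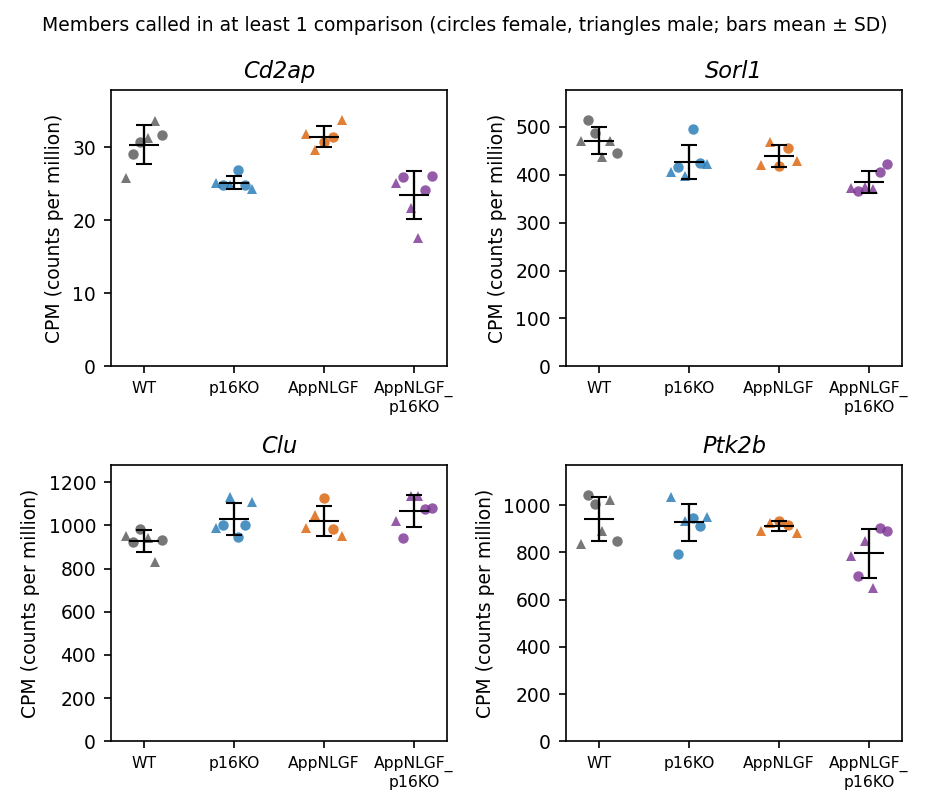
CPM of the 4 genes called in at least 1 comparison, by genotype on the x axis; each point is 1 mouse (circles female, triangles male by Xist level), and bars give the mean and SD. Cd2ap in AppNLGF_p16KO (17.5 to 26.1 CPM) lies wholly below AppNLGF (29.6 to 33.7 CPM), while the ranges of Clu and Ptk2b overlap between all genotypes.

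Of 22 genes tested within 2 Mb of Cd2ap on chromosome 17, itself included, 3 were called in the average over App genotypes (13.6%, against 13.0% of all genes). The 2 that were lower were Cd2ap and Adgrf5 (log2 -0.26, edgeR adjusted p = 0.0109). Mmut, a mitochondrial mutase, was higher (0.28, adjusted p = 0.0393). The nearest genes tested on either side, Adgrf2 (-0.35, adjusted p = 0.224) and Tnfrsf21 (0.09, adjusted p = 0.0844), were not called. These neighbours were named after their values were seen.

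Libraries without p16 tended to read long transcripts at lower levels than libraries with p16. The slope of log2 CPM on log2 transcript length, taken against the mean of all libraries, was negative in 5 of 6 p16KO and 5 of 6 AppNLGF_p16KO libraries, 1 of 6 WT libraries and 1 of 5 AppNLGF libraries. Its median was 0.06 in WT, -0.02 in p16KO, 0.03 in AppNLGF and -0.08 in AppNLGF_p16KO, with the lowest value of -0.17 in AppNLGF_p16KO 21. In the averaged p16 comparison genes were put into 10 groups of equal size by transcript length. The median log2 change was 0.08 in group 1, the shortest, and -0.14 in group 10, the longest. Of group 10, 23.18% were called lower, against 1.18% of group 1. Cd2ap (longest transcript 5.61 kb) is in group 9, where the median was -0.06 and 8.91% were called lower. The exons of all 6 Cd2ap transcripts together cover 15.86 kb, a length not used in this grouping. Its longest transcript has 38.4% G or C. With each library's trends in length and GC content removed, a step chosen after seeing the data, Cd2ap remained called in the average (log2 -0.25, edgeR adjusted p = 0.00565) and against WT (-0.23, adjusted p = 0.0412). In the AppNLGF background it then stood at -0.35 (adjusted p = 0.0522), and in the wild-type App background at -0.15 (adjusted p = 0.252).

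**Figure D2:**
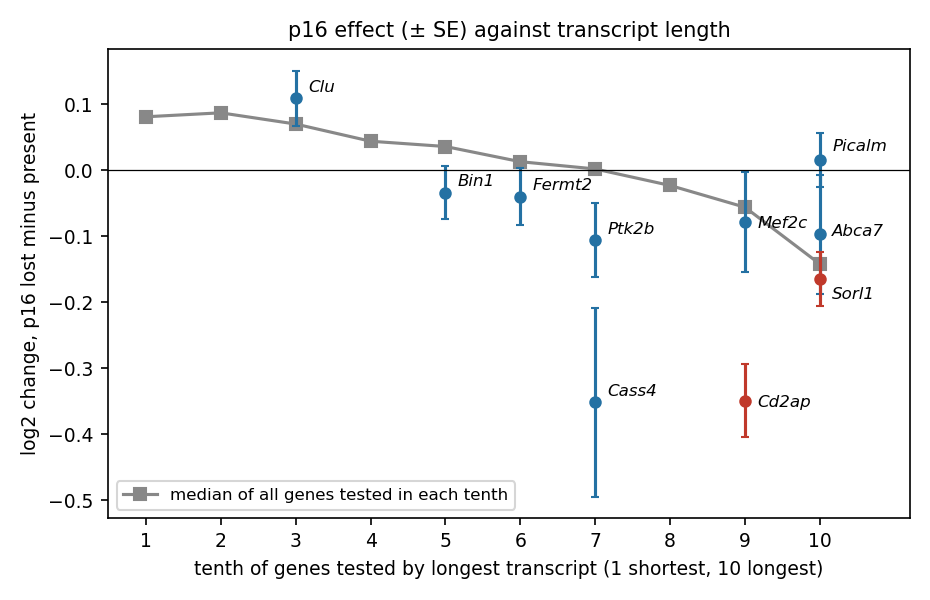
Log2 change without p16 (y axis, mean of both App genotypes, ± SE) against the group of genes by longest transcript (x axis, 1 shortest to 10 longest); points are the 10 genes (red where called) and grey squares the median of all genes in each group. The grey line falls from 0.08 to -0.14; Cd2ap lies below it, and Sorl1 lies near it.

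Sorl1, the sorting receptor, was lowest in mice with both changes. Sorl1 (ENSMUSG00000049313, chromosome 9, 41964720 to 42124297, minus strand) ran from 438 to 514 CPM in WT (median 471) and from 397 to 496 CPM in p16KO (median 419). The AppNLGF libraries read 420, 469, 419, 456 and 429 CPM. AppNLGF_p16KO libraries ran from 367 to 423 CPM (median 373), so that none reached the lowest WT mouse. This was 1 of the 10 genes without overlap between AppNLGF_p16KO and WT, against 2.75% of all genes. Sorl1 fell by 18.2% there (log2 -0.29, SE 0.056, edgeR adjusted p = 0.00446) and by 10.8% in the average over App genotypes (log2 -0.16, SE 0.041, adjusted p = 0.0167). Both calls were kept in all 23 fits that left out 1 library, and without AppNLGF_p16KO 21 and 22 (adjusted p = 0.0291 and 0.0433). With the length and GC trends removed they were lost: the values became -0.01 (adjusted p = 0.957) and 0.06 (adjusted p = 0.572). The longest Sorl1 transcript has 10.71 kb and sits in length group 10, whose median change was -0.19 in AppNLGF_p16KO minus WT. Leaving out AppNLGF_p16KO 23 gave a call against AppNLGF too (adjusted p = 0.0135), where the fit on all libraries gave log2 -0.19 (adjusted p = 0.112) and DESeq2 0.043.

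In AppNLGF_p16KO minus WT, 4 of the 10 genes were called, 3 lower (Sorl1, Cd2ap and Ptk2b) and 1 higher (Clu), against 9.56% of all genes (6.10% higher and 3.46% lower). The median log2 change of the 10 genes was -0.05, beside 0.00 for all genes tested.

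Clu was the member that rose. Clu (ENSMUSG00000022037, chromosome 14, 65968483 to 65981547, plus strand) ran from 830 to 984 CPM in WT (median 936) and from 948 to 1132 CPM in p16KO (median 1002). AppNLGF libraries read 987, 1049, 1126, 984 and 949.8 CPM, and AppNLGF_p16KO ran from 941 to 1138 CPM (median 1078). All 6 AppNLGF_p16KO mice lay above the WT mean, with overlap between the ranges. The log2 change was 0.20 (SE 0.058, edgeR adjusted p = 0.0322). The call was lost without WT 2 (0.0637), WT 4 (0.0558), WT 5 (0.0982), WT 6 (0.0595), or AppNLGF_p16KO 20 (0.0727), 21 (0.0909) or 22 (0.0561). Without both 21 and 22 the value was 0.17 (adjusted p = 0.204). Removing length and GC trends left 0.08 (adjusted p = 0.191), and Clu, at 1.81 kb, is among the shorter transcripts. In the same comparison 3 of 10 astrocyte markers were called higher and 1 lower. Gfap, the filament protein of reactive astrocytes, had log2 0.73 (edgeR adjusted p = 2.41e-05). The summed astrocyte markers ran from 5981 to 6330 CPM in WT and from 6101 to 6815 CPM in AppNLGF_p16KO. Their part in the Clu value was not tested.

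Ptk2b, a calcium-activated kinase abundant in hippocampal neurons, was lower in AppNLGF_p16KO than in WT by a narrow margin. Ptk2b (ENSMUSG00000059456, chromosome 14, 66153257 to 66281052, minus strand) ran from 834 to 1043 CPM in WT (median 948), 795 to 1033 in p16KO (median 939) and 648 to 904 in AppNLGF_p16KO (median 817). AppNLGF libraries were closely grouped at 892, 926, 933, 916 and 884 CPM. All 6 AppNLGF_p16KO mice were below the mean of each other genotype, although the ranges overlapped. The change from WT was log2 -0.24 (SE 0.077, edgeR adjusted p = 0.0491). It was lost in 17 of 23 fits that left out 1 library (0.0501 to 0.146) and kept only without WT 1, WT 6, p16KO 7, p16KO 8, or AppNLGF_p16KO 22 or 23 (0.0142 to 0.0464). Without both 21 and 22 it was -0.22 (adjusted p = 0.164), and with length and GC trends removed -0.23 (0.0561). Against AppNLGF the value was -0.19 (adjusted p = 0.158, or 0.0479 without AppNLGF_p16KO 23), and against p16KO it was -0.22 (adjusted p = 0.415). Summed dentate gyrus markers ran from 326 to 470 CPM in AppNLGF_p16KO and from 402 to 552 CPM in WT, with 0 of 8 called in edgeR, 2 of 8 at an unadjusted p under 0.05, and 1 of 8 (lower) in DESeq2. Their part was not tested.

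**Figure D3:**
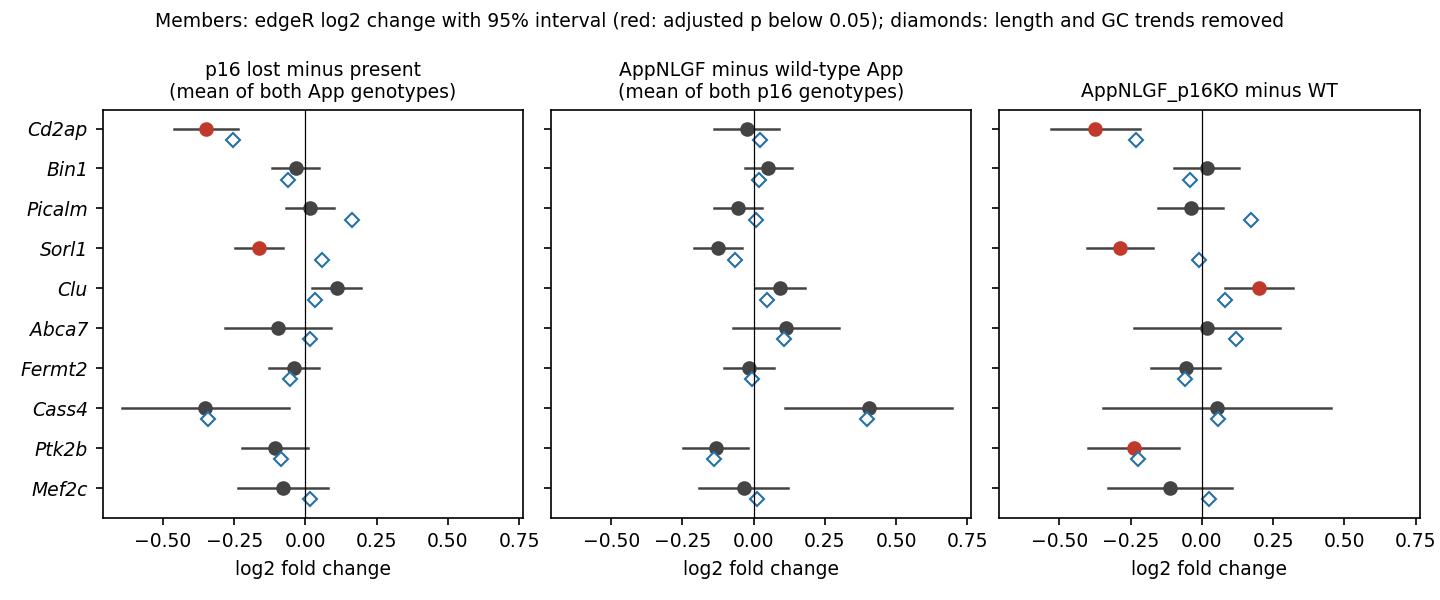
edgeR log2 fold change (x axis) with 95% interval for each of the 10 genes (y axis) in 3 comparisons; red marks an adjusted p below 0.05, and open diamonds give the value with length and GC trends removed. Cd2ap keeps its place left of 0 under that step in the p16 and AppNLGF_p16KO panels, while Sorl1 moves from -0.16 to 0.06 and from -0.29 to -0.01.

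The App knock-in by itself moved none of the 10 genes past the threshold. In AppNLGF minus WT, edgeR and DESeq2 each called 0 of 10, 1 had an unadjusted p under 0.05 (Clu, log2 0.14), and 0.319% of all genes were called. WT and AppNLGF ranges overlapped for all 10, against 1.88% of all genes without overlap. Averaged over p16 genotypes, both tools again called 0 of 10, with 4 at an unadjusted p under 0.05 and 0.793% of all genes called. Those 4 were Sorl1 (-0.12, adjusted p = 0.212), Cass4 (0.40, 0.266), Ptk2b (-0.13, 0.381) and Clu (0.09, 0.436). In AppNLGF_p16KO minus p16KO both tools called 0 of 10, 3 were at an unadjusted p under 0.05, and 0.247% of all genes were called. All 10 overlapped there, against 0.463% of all genes without overlap. The interaction of App and p16 gave 0 of 10 calls in both tools, 0 at an unadjusted p under 0.05, and 0.00% of all genes. In AppNLGF minus p16KO edgeR called 0 of 10, DESeq2 1 (Cd2ap), 2 had an unadjusted p under 0.05, and 0.608% of all genes were called.

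These same libraries showed the knock-in in microglia. In AppNLGF_p16KO minus WT, which also differs in p16, 8 of 12 markers of plaque-associated microglia were called higher, against 6.10% of all genes. In AppNLGF minus WT, Cst7, Clec7a, Itgax, Trem2, Tyrobp, Ccl6 and Ctsd were called higher. Axl, Lpl, Cd9, Spp1 and Gpnmb were not. The summed level of the 12 markers ran from 353 to 399 CPM in WT and from 369 to 473 CPM in p16KO. With the knock-in it ran from 491 to 569 CPM (AppNLGF) and from 484 to 608 CPM (AppNLGF_p16KO). Every library with the knock-in lay above every library without it on this sum. None of the 10 genes separated these libraries without overlap.

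Bin1 and Picalm, which bend and coat endocytic membranes, were not called in any comparison. Bin1 (ENSMUSG00000024381) had means of 259 ± 14.1 (SD, n = 6), 256 ± 17.1 (SD, n = 6), 272 ± 8.15 (SD, n = 5) and 262 ± 21.5 CPM (SD, n = 6) in WT, p16KO, AppNLGF and AppNLGF_p16KO. Its log2 difference without p16 was -0.03 (95% interval -0.12 to 0.05), and with the knock-in 0.05 (-0.03 to 0.13). Picalm (ENSMUSG00000039361, chromosome 7, 90130213 to 90213465, plus strand) had means of 212 ± 10.8 (SD, n = 6), 211 ± 12.3 (SD, n = 6), 201 ± 8.97 (SD, n = 5) and 206 ± 18.6 CPM (SD, n = 6). Its log2 difference without p16 was 0.02 (95% interval -0.07 to 0.10, edgeR adjusted p = 0.83). Picalm has a transcript of 8.21 kb, in length group 10, and with length and GC trends removed it read higher without p16 (0.16, adjusted p = 0.0393).

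Abca7, Fermt2 and Mef2c were not called in any comparison either. Abca7 (ENSMUSG00000035722), the lipid transporter, ran from 15.5 to 28.0 CPM over all libraries. Both extremes were AppNLGF_p16KO mice, and its log2 difference without p16 was -0.10 (95% interval -0.28 to 0.09). Fermt2 (ENSMUSG00000037712), the integrin activator, ran from 80.9 to 105 CPM with a difference of -0.04 (95% interval -0.13 to 0.05). Mef2c (ENSMUSG00000005583) ran from 157 to 290.0 CPM, where WT 1 was the highest and the next WT library stood at 210.3 CPM. Its difference without p16 was -0.08 (95% interval -0.24 to 0.08).

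Cass4, a scaffold of focal adhesions, was the least abundant member. Its reads per library numbered 21 to 35 (WT), 15 to 21 (p16KO), 27 to 32 (AppNLGF) and 15 to 33 (AppNLGF_p16KO). The p16KO libraries held the fewest: all 5 AppNLGF libraries (0.514, 0.585, 0.487, 0.551 and 0.782 CPM) exceeded all p16KO libraries (0.272 to 0.397 CPM). Cass4 and Cd2ap were the 2 of 10 genes without overlap between these genotypes, against 3.22% of all genes. The log2 difference for Cass4 was 0.75 (SE 0.209, edgeR adjusted p = 0.0989), which did not pass. An antisense gene, Gm14455, shares 1130 exonic bases with Cass4. Overlaps with antisense exons were 256 bases for Bin1 and 185 for Sorl1. The kit keeps strand, and whether the counts used it is not given in the sources used here, so reads of these pairs may not be separated.

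**Figure D4:**
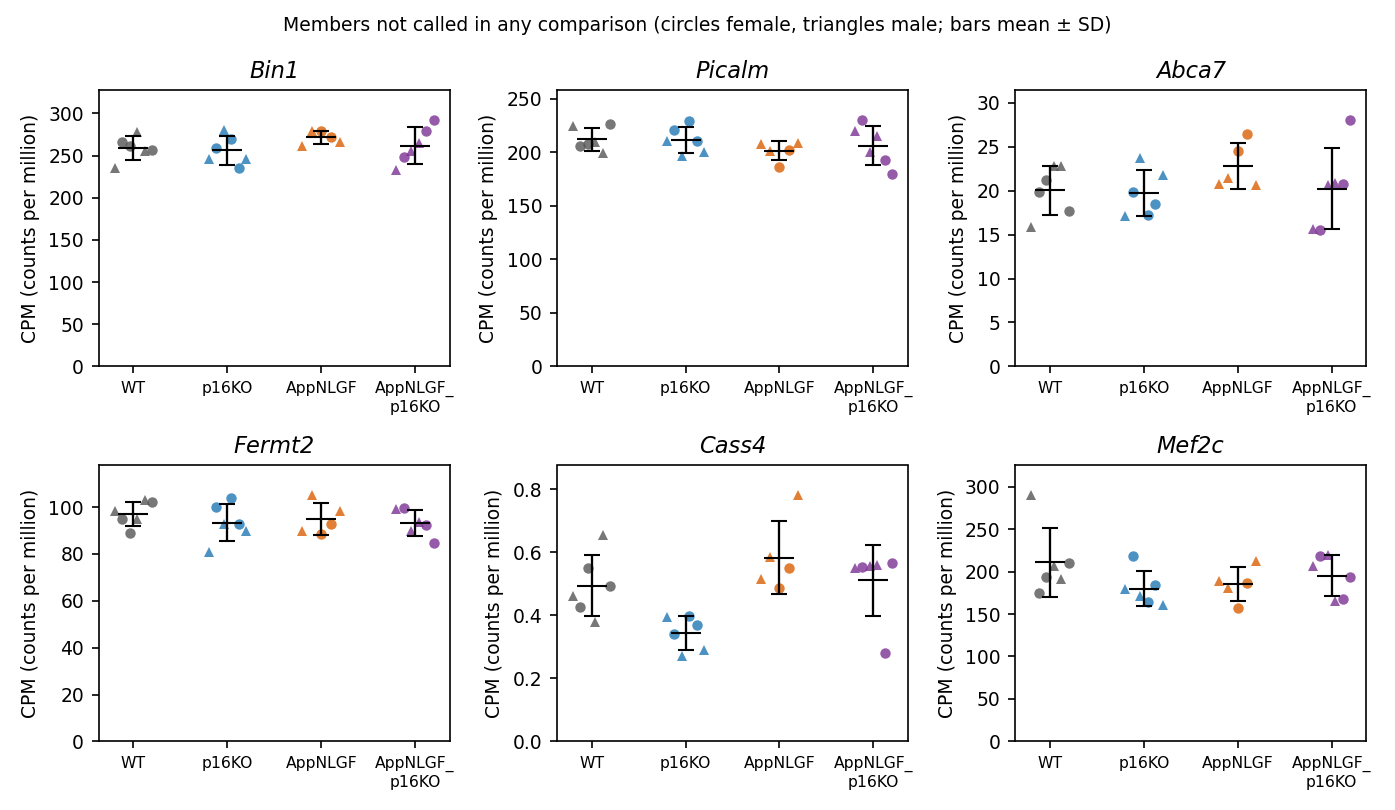
CPM of the 6 genes called in no comparison, by genotype on the x axis; each point is 1 mouse (circles female, triangles male), and bars give the mean and SD. The 4 genotypes overlap for Bin1, Picalm, Abca7, Fermt2 and Mef2c, while Cass4 in p16KO (0.272 to 0.397 CPM) lies below AppNLGF (0.487 to 0.782 CPM).

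Partners of the 10 genes in the same systems were called in both directions. Over all lists, 21 of 160 genes were called without p16 in the average over App genotypes (13.1%, against 13.0% of all genes, 7.66% higher and 5.32% lower). Of 34 genes of clathrin endocytosis, 6 were called higher and 4 lower in that comparison (29.4%, list median log2 0.02, all genes 0.00). Among those higher were Ap2s1, the small subunit of the AP2 adaptor (0.29, edgeR adjusted p = 0.00402), Rab5c (0.21, 0.00965) and Rab5b (0.15, 0.0208), early endosome GTPases. Synj2, a phosphatase that helps shed clathrin coats, was lower (-0.19, 0.0238). Of 25 focal adhesion and actin genes, 2 were higher and 3 lower (list median -0.01). Integrin-linked kinase Ilk was higher (0.17, 0.0165), as was the adaptor Crkl (0.17, 0.0265). The kinases Rock1 (-0.34, 0.0168) and Rock2 (-0.30, 0.0258), which contract actomyosin, were lower.

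Among 17 apolipoproteins, their receptors and A-type ABC transporters, 2 were higher and 1 lower without p16 (17.6%, list median -0.06). Those were the cholesterol carrier Apoe (0.17, edgeR adjusted p = 0.0183), the cholesterol-esterifying enzyme Lcat (0.27, 0.0139) and the reelin receptor Lrp8 (-0.26, 0.0277). In 21 retromer and sorting genes edgeR called 0 higher, with 5 at an unadjusted p under 0.05 and 2 higher in DESeq2, and 1 lower, Sorcs2 (-0.23, 0.0261), a relative of Sorl1 that is also the 1 of 21 paralogs called (4.76% of either list, with list medians of 0.05 and -0.02). Of 43 further genes at Alzheimer risk loci, 2 were higher (4.65%, list median 0.02), Tspan14 (0.16, 0.0348) and Sharpin (0.13, 0.0411), and 0 lower in edgeR, with 11 at an unadjusted p under 0.05 and 3 lower in DESeq2. In 20 genes of the Mef2 family, its deacetylases and activity-regulated genes, edgeR called 0 in this comparison, with 6 at an unadjusted p under 0.05 and 2 (lower) in DESeq2.

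Transcript length ran with the direction of these calls. Among the 21 genes called in the average over App genotypes, all 9 that were lower had transcripts of 5.66 to 14.01 kb, in length groups 8 to 10. Of the 12 that were higher, 10 were in groups 1 to 5. With length and GC trends removed, 10 of the 21 remained called. Ap2s1 (0.18, edgeR adjusted p = 0.00552) and Rab5c (0.15, 0.0178) were among those kept, as were Sorcs2 (-0.15, 0.0207) and Rock1 (-0.24, 0.0343). Apoe (0.08, 0.0751), Lcat (0.16, 0.052) and Synj2 (-0.11, 0.191) were not. Neither were Rock2 (-0.16, 0.0557), Lrp8 (-0.15, 0.0625), Tspan14 (0.12, 0.0586) and Sharpin (0.06, 0.205).

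In AppNLGF_p16KO minus WT, 16 of the same 160 genes were called, against 9.56% of all genes. Of the clathrin list 3 were higher, among them Ap2s1 (0.39, edgeR adjusted p = 0.00215) and Rab5c (0.32, 0.00386), and 4 were lower, among them the coat initiator Fcho2 (-0.21, 0.0227). Ilk (0.23, 0.0176), Apoe (0.27, 0.0118) and Lcat (0.39, 0.011) were higher, and Rock1 (-0.46, 0.0193) and Rock2 (-0.41, 0.0297) lower. All 8 lower genes were again in length groups 8 to 10, and 4 of the 16 remained called with length and GC trends removed. This comparison shares libraries with the average over App genotypes.

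Comparisons that involve the knock-in gave other calls in these lists. In AppNLGF minus WT, Egr2 (log2 -0.98, edgeR adjusted p = 0.0328) and Sik1 (-0.45, 0.0366), both induced by neuronal activity, were 2 of 20 genes of the Mef2 list called lower. Egr1 (-0.48, 0.0118) and Homer1 (-0.25, 0.0414) were lower in AppNLGF_p16KO minus WT. With length and GC trends removed, Egr1 remained called (-0.46, 0.00703) and Homer1 did not (-0.08, 0.505). Egr2 (-0.99, 0.0293) and Sik1 (-0.48, 0.0308) remained called in AppNLGF minus WT under that step. Homer1, a postsynaptic scaffold, was also lower in the average over p16 genotypes (-0.27, 0.0101). In that average Homer1 remained called with those trends removed (-0.22, 0.0269). Bin2, a myeloid relative of Bin1, was higher in that average (0.33, 0.0411), the 1 of 21 paralogs called there. With those trends removed Bin2 did not pass (0.0822).

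Libraries of 1 genotype differed in linked ways for a few pairs of the 10 genes. Genotype means were removed from log2 CPM, and 45 pairs were tested over 23 libraries with 100000 permutations each, two-sided and with Benjamini-Hochberg adjustment. By Pearson's r 3 pairs passed and by Spearman's rho 4, with 2 pairs passing by both. Picalm and Abca7 ran opposite to each other (r = -0.83, permutation p = 2e-05, adjusted p = 0.0009, and rho = -0.77, permutation p = 0.0002, adjusted p = 0.009). Bin1 and Abca7 ran together (r = 0.72, permutation p = 0.00115, adjusted p = 0.0259; rho = 0.61, p = 0.00695, adjusted p = 0.0625). Picalm and Ptk2b ran opposite (r = -0.69, permutation p = 0.00317, adjusted p = 0.0475; rho = -0.73, p = 0.00108, adjusted p = 0.0189). With the 2 libraries farthest from the median of the first gene left out, r was -0.73, 0.57 and -0.62. By rho alone, Cd2ap and Clu ran opposite (r = -0.57, permutation p = 0.00892, adjusted p = 0.0803; rho = -0.65, p = 0.00126, adjusted p = 0.0189; r = -0.64 without 2 libraries). Picalm and Fermt2 ran together by rho alone (r = 0.57, permutation p = 0.00657, adjusted p = 0.0739; rho = 0.64, p = 0.00302, adjusted p = 0.034; r = 0.46 without 2 libraries). Picalm is long (8.21 kb, 42.1% G or C) and Abca7 is G and C rich (58.9%), and the part of base composition was not tested.

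**Figure D5:**
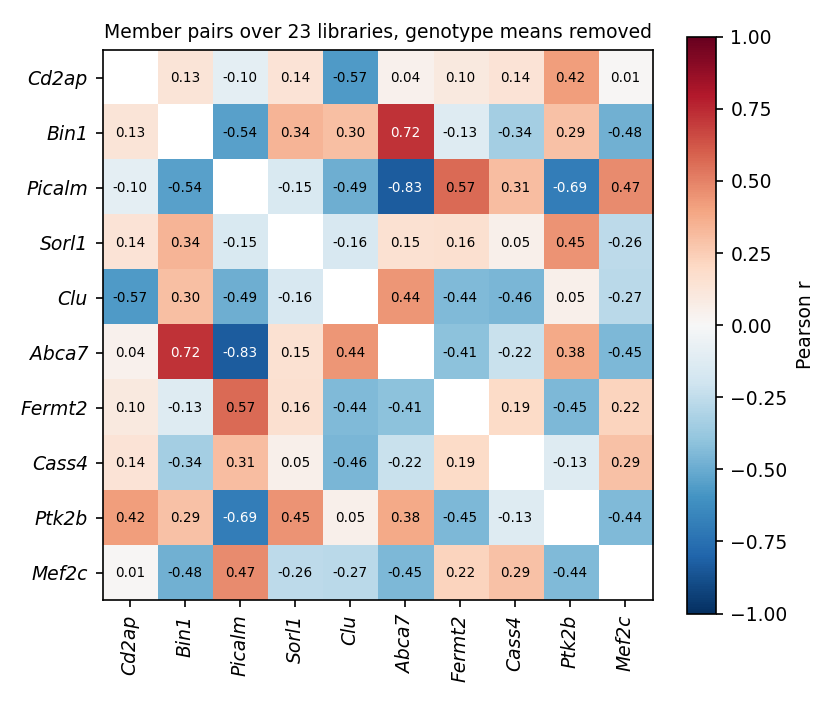
Pearson r between the log2 CPM of each pair of the 10 genes (both axes) over 23 libraries after genotype means were removed, from -1 (blue) to 1 (red). Picalm and Abca7 have the lowest value, -0.83, and Bin1 and Abca7 the highest, 0.72.

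The 10 genes were set against 12 cell type marker lists in the same way, and 5 of 120 relations passed by Pearson's r. Oligodendrocyte precursor markers ran with Abca7 (r = 0.80, permutation p = 8e-05, adjusted p = 0.006; rho = 0.75, p = 0.00018, adjusted p = 0.0208; r = 0.68 without 2 libraries). They also ran with Bin1 (r = 0.69, permutation p = 0.00012, adjusted p = 0.006; rho = 0.67, p = 0.00089, adjusted p = 0.0267; r = 0.51 without 2 libraries). Their relation to Picalm was inverse (r = -0.69, permutation p = 0.00078, adjusted p = 0.0187; rho = -0.63, p = 0.00281, adjusted p = 0.0562; r = -0.55 without 2 libraries). The list of oligodendrocyte markers, cells where Bin1 is known to be abundant, was in none of the 5 relations. Longest transcripts had 58.9% (Abca7), 55.3% (Bin1) and 42.1% (Picalm) G or C, and the part of base composition was not tested. Ptk2b ran with markers of dentate granule cells (r = 0.81, permutation p = 0.0002, adjusted p = 0.006; rho = 0.78, p = 0.00046, adjusted p = 0.0208; r = 0.75 without 2 libraries). It ran with CA pyramidal cell markers too (r = 0.73, permutation p = 0.0002, adjusted p = 0.006; rho = 0.71, p = 0.00052, adjusted p = 0.0208; r = 0.65 without 2 libraries). By rho alone, Picalm ran opposite to the CA markers (r = -0.55, permutation p = 0.0158, adjusted p = 0.158; rho = -0.66, p = 0.0017, adjusted p = 0.0408; r = -0.48 without 2 libraries). Cd2ap passed with none of the 12 lists by either measure. Its r with the length slope was 0.66 (permutation p = 0.00679, adjusted p = 0.136 over 20 relations; rho = 0.51, p = 0.0237, adjusted p = 0.237), and 0.46 without 2 libraries.

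Genes most like each member over the 23 libraries, by Pearson r of the same values among 11395 genes, are given as description. Cd2ap was closest to the glutamate receptor gene Gria3 (r = 0.90), Frmpd4 (0.89) and Esf1 (0.89). Sorl1 had looser matches, led by Arhgef7 (0.71), Clpb (0.67) and Wdr59 (0.67). Clu was closest to Ctdnep1 (0.89), Csnk2b (0.89) and Eml3 (0.88), and Ptk2b to Amer3 (0.93), Dpp6 (0.91) and Tspan18 (0.91). Picalm was closest to Nap1l3 (0.94), Gmps (0.93) and Avl9 (0.93). Abca7 was closest to Aifm3 (0.94), Hspg2 (0.92) and Nfic (0.92). Bin1 led to Kmt5c (0.84), Inppl1 (0.80) and Dpp9 (0.80), and Fermt2 to Abcd2 (0.92), Nmt2 (0.86) and Ankrd29 (0.85). Mef2c was closest to Fam160a2 (0.84), Ipcef1 (0.84) and Cacnb4 (0.81), and Cass4 to Lacc1 (0.76), Paox (0.74) and Ccdc82 (0.71). The libraries behind these values share depth, length and base composition trends.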

How the data were processed

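Poly-A RNA of hippocampi from 23 mice was sequenced (NextSeq 2000, single reads of 50 bases) after stranded library preparation, per the labels' protocols. The deposited values are raw counts: per the series design text, the authors trimmed reads with cutadapt 4.2, removed ribosomal reads with Bowtie2 2.3.5, aligned with STAR 2.7.10b to GRCm38, and kept unique reads assigned to 1 gene of Ensembl release 102. The submitters' processing notes also name mm39. Coordinates were identical to GENCODE M21 (GRCm38) for 36795 of 37060 shared genes, so GRCm38 is used. Libraries carried no molecular identifiers. Statements on the precision of Cass4 rest on its read counts, while SDs, SEs, intervals and p-values include differences between mice.

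Counts were tested with edgeR 4.0.16 in R 4.3.3: filterByExpr with a minimum of 10, TMM scaling, robust quasi-likelihood fit of the 4 genotypes, two-sided, Benjamini-Hochberg adjustment over 19423 genes, threshold 0.05. The common dispersion was 0.0249. DESeq2 1.42.0 was an alternative. Other alternatives were RLE scaling, other count filters, a non-robust fit, a sex term, the 2 groups alone, other thresholds and omission of libraries. Permutations used SciPy 1.17.1. Log2 CPM had a prior count of 2. Mice are separate animals. On simulated counts of 19192 genes, the p16KO minus WT test recovered 12% of 1.2-fold and 62% of 1.5-fold changes. The average over App genotypes recovered 34% and 72%.

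Named genes are the 10 members, Cdkn2a and App. They also include up to 4 called genes of lowest p per list and comparison, every called paralog, and the 3 genes most like each member. Length was the longest GENCODE transcript, known for 19409 genes tested. The members and lists were chosen with earlier results of these data known.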

Additional observations from a re-analysis of the deposited data

Results flagged for a closer look

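In 4 of 40 groups of values tested, 1 library stood apart from the others of its genotype by Dixon's ratio at the 95% level. Chance alone flags about 1 in 20 groups. Cd2ap in p16KO 10 read 26.8 CPM, above 24.2 to 25.2 CPM in the other 5. Sorl1 in the same library read 496 CPM, above 397 to 424 CPM in the others. Cass4 in AppNLGF_p16KO 22 read 0.281 CPM (15 reads), below 0.552 to 0.566 CPM in the others. Mef2c in WT 1 read 290.0 CPM, above 175 to 210.3 CPM in the others. Over the 23 fits that left out 1 library, the log2 value of Mef2c for p16KO minus WT ran from -0.29 to -0.12, and Mef2c was not called in any of them.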

How the results depend on the processing

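Over 90 results of single genes and 3030 alternative values, 58 lost a call and 23 gained one. A further 1 changed sign and was no longer called. The sign differed from the reported one in 68 values of 31 results. In 67 of these the reported value was not called, and in 1 it was: Sorl1 in the average p16 comparison, 0.057 with length and GC trends removed. That alternative was added after seeing the data.

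The number of the 10 genes called changed as follows, and the cause was not tested. For p16KO minus WT (0 as reported) it was 1 without AppNLGF_p16KO 21 and 22, with the 2 groups alone, with DESeq2 and at adjusted p under 0.1, and 0 to 1 when 1 library was left out. For AppNLGF_p16KO minus AppNLGF (1) it was 0 with length and GC trends removed, a non-robust dispersion, the 2 groups alone and a threshold of 0.01, 2 with DESeq2, and 0 to 3 when 1 library was left out. For AppNLGF_p16KO minus WT (4) it was 1 with length and GC trends removed, 2 with no count filter, without AppNLGF_p16KO 21 and 22, with the 2 groups alone and at 0.01, and 2 to 4 when 1 library was left out. For AppNLGF minus p16KO (0) it was 1 with length and GC trends removed, a sex term, the 2 groups alone, DESeq2 and without AppNLGF_p16KO 21 and 22, 2 at 0.1, and 0 to 1 when 1 library was left out. For the averaged p16 comparison (2) it was 4 at 0.1, 1 at 0.01, and 2 to 3 when 1 library was left out. With length and GC trends removed it stayed at 2, but Sorl1 was lost and Picalm was gained. Pairs related among the 10 genes were 9 instead of 3 when genotype means were kept.

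No paired analysis was possible because replicate numbers 1 to 23 are not shared between genotypes. Counts over all genes moved more. Those for p16KO minus WT (60) were 29 with length and GC trends removed, 267 without AppNLGF_p16KO 21 and 22, 356 with the 2 groups alone, 469 in DESeq2, and 7 to 239 when 1 library was left out. Those for AppNLGF_p16KO minus AppNLGF (6) were 17 with no count filter, 15 without 21 and 22, 0 with the 2 groups alone, 676 in DESeq2 and 2 to 4156 when 1 library was left out. Those for AppNLGF_p16KO minus WT (1857) were 782 with the trends removed, 1072 with no count filter, 150 without 21 and 22, 604 with the 2 groups alone and 456 to 4456 when 1 library was left out. Those for the averaged p16 comparison (2522) were 1364 with no count filter, 474 without 21 and 22 and 762 to 5117 when 1 library was left out. Those for AppNLGF minus WT (62) were 153 in DESeq2, for AppNLGF_p16KO minus p16KO (48) 18 without 21 and 22, 19 with the 2 groups alone and 101 in DESeq2, and for the averaged App comparison (154) 285 in DESeq2. Those for AppNLGF minus p16KO (118) were 220 with the trends removed, 207 with the 2 groups alone, 315 in DESeq2 and 50 to 206 when 1 library was left out. Cass4, at 15 to 35 reads per library, is limited by depth.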
